A study of Homo sapiens with 10 samples.

Results

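The genes examined here were those of the BMP and TGF-beta signalling pathway in human embryonic stem cells (ESCs) and in the neuroectodermal cells (NECs) derived from them. Members were rows of the gene count table whose gene symbol was on a list of ligands, receptors, SMADs, secreted antagonists and ID target genes. Of 45 listed genes, 44 had a row among the 31017 genes of the table, and SMAD5 was not analysed here. The promoter of a member was the HindIII restriction fragment, baited in Promoter Capture Hi-C (PCHi-C), that held the gene start. All 44 members with a row had such a bait, and 44 of the 21833 baits in the interaction lists were theirs. Membership followed from the symbol, and the list itself was drawn up with earlier results of these data known.

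BMP and TGF-beta ligands bind paired type I and type II serine/threonine kinase receptors, which phosphorylate receptor-regulated SMADs. SMAD1, SMAD5 and SMAD9 act downstream of BMP receptors, SMAD2 and SMAD3 downstream of TGF-beta, activin and NODAL receptors, and both groups enter the nucleus with SMAD4. SMAD6, SMAD7 and the pseudoreceptor BAMBI dampen the signal and are themselves transcribed in response to it, as are the ID genes. In early embryos, low BMP and NODAL signalling permits neural induction, whereas BMPs from the roof plate later pattern the dorsal neural tube.

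RNA-seq and PCHi-C were each carried out on 2 biological replicates of ESCs and 2 of NECs. ESCs were the H9 (WA09) line, kept in Pluripro medium and matrix, and NECs were cells of that line taken through neural differentiation and collected on day 7. All samples therefore come from 1 line, and the components of the differentiation medium, including any pathway ligand or inhibitor in it, are not given in the sources used here. The second ESC replicate of PCHi-C combined technical replicates. In such bulk samples, fewer cells of a type and less RNA per cell cannot be told apart.

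The RNA-seq libraries held between 19234087 and 25356382 counts. The ESC libraries shared a sequencing lane and the NEC libraries shared a different one, which means that lane and cell type cannot be told apart. All 9 pluripotency markers with a row fell in NECs (median log2 fold change -4.35) and 9 of 10 neuroectoderm markers rose (median 4.45), which is the direction of the labels. Pluripotency markers were still present in NECs, with a summed level of 985 normalised counts scaled to a common library size (CPM) in replicate 1 and 1453 in replicate 2, against 5360 and 5650 in ESCs. Most of what remained was LIN28A (729 and 941 CPM in NECs), and without it the sums were 255 and 511 CPM in NECs against 3999 and 4322 CPM in ESCs. POU5F1, which encodes OCT4, had 1482 and 1438 CPM in ESCs and 31.0 and 111 CPM in NECs. Of the other marker lists, 6 of 10 neural crest markers rose and 1 fell, 7 of 9 tested mesendoderm markers fell and 1 rose, 3 of 6 tested surface ectoderm markers fell, and 7 of 9 tested roof plate markers rose. The summed neural crest level was 261 CPM in NEC replicate 1 and 127 CPM in NEC replicate 2, against 149 and 137 CPM in ESCs, of which ETS1, the marker that fell, made up 106 and 105 CPM in ESCs. Without ETS1 the crest sums were 233 and 123 CPM in NECs against 42.6 and 31.8 CPM in ESCs. Most of these NEC sums was NGFR (78.4 and 78.9 CPM, against 22.1 and 10.6 CPM in ESCs) and PAX3 (66.3 and 17.9 CPM). FOXD3 was also lower in both NEC libraries (8.7 and 0.365 CPM against 15.05 and 16.14 CPM in ESCs) without passing the test. SOX10 had 18.4 and 0.689 CPM in NECs against 3.71 and 3.64 CPM in ESCs and did not pass either. The summed roof plate level was 400.2 and 299.98 CPM in NECs against 267 and 248 CPM in ESCs. Most of it was ZIC2 (249 and 216 CPM in NECs, 191 and 183 CPM in ESCs) and ZIC5 (58.0 and 47.5 CPM in NECs, 72.7 and 62.5 CPM in ESCs). The sum therefore says little about the other markers of that list. The summed mesendoderm level differed between the ESC libraries, with 48.5 CPM in replicate 1 and 115 CPM in replicate 2, and was 49.7 and 31.2 CPM in NECs, where CXCR4, the marker that rose, made up 42.0 and 25.3 CPM. KRT5, KRT14 and TP63, the defining markers of stratified surface ectoderm, had 3 counts or fewer in every library. On the same list, KRT8 had 184 and 215 CPM in ESCs and 217 and 242 CPM in NECs. KRT18 had 93.6 and 110 CPM in ESCs and 92.6 and 109 CPM in NECs, and neither of these keratins passed the test.

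More members were higher in NECs than lower. Of the 43 members that passed the filter on low counts, 20 rose (46.5%) and 8 fell (18.6%) at an edgeR adjusted p under 0.05, against 31.5% and 29.7% of all 17564 genes tested. With the fold change threshold of the study added (an absolute log2 fold change above 1.5, here termed called), 15 members were called higher (34.9%) and 3 lower (6.98%), against 11.4% and 9.68% of all genes. The median log2 fold change of the tested members was 0.82, beside 0.01 over all genes tested. ACVRL1, a type I receptor best known from endothelium, was the untested member, with 2, 3, 5 and 3 counts. Both NEC libraries lay above both ESC libraries at 28 of the 43 tested members (65.1%) and below them at 8 (18.6%), against 42.8% and 41.0% of all genes tested, and at 7 members the libraries of the cell types overlapped.

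**Figure D1:**
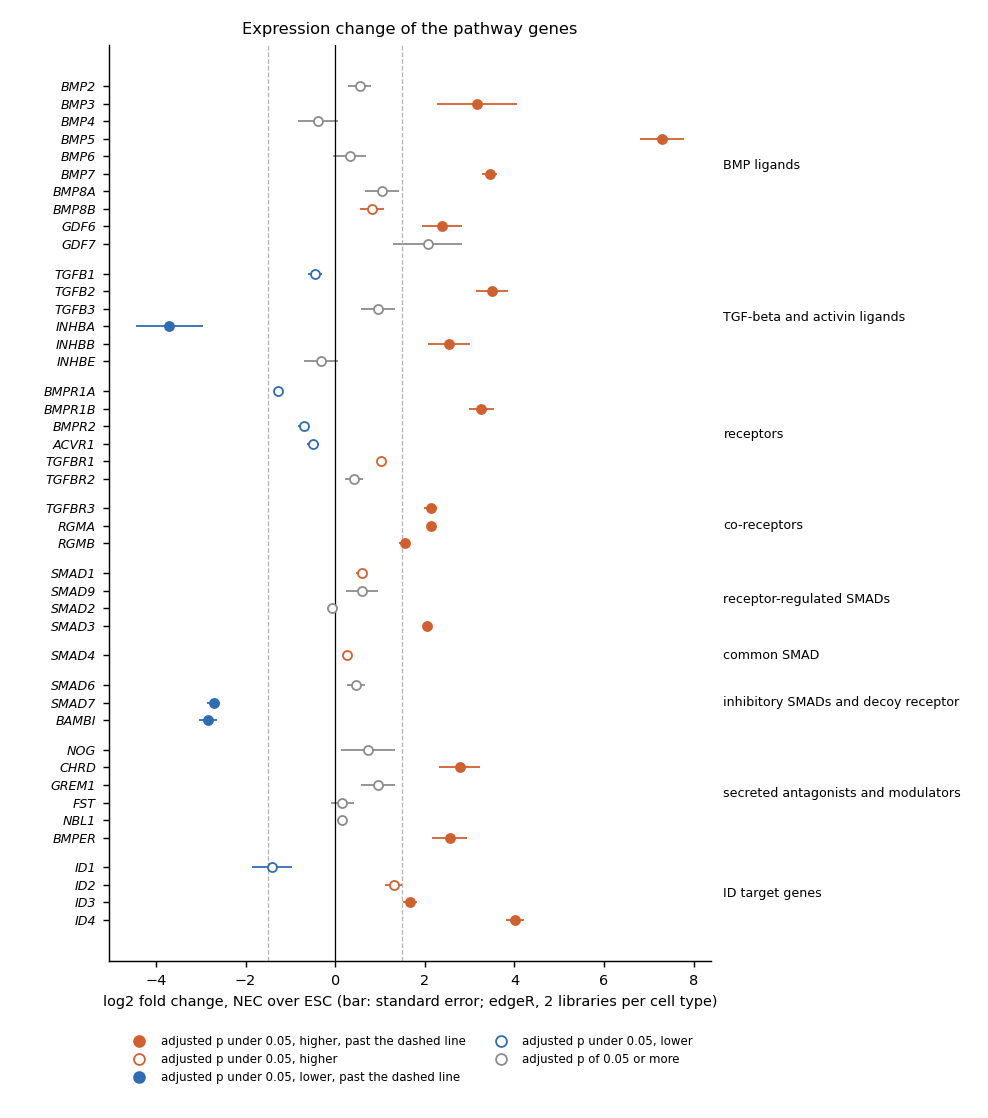
Each point is the log2 fold change of a member in NECs over ESCs with its standard error (edgeR, 2 libraries per cell type), grouped by role; filled points passed an adjusted p of 0.05 and the dashed lines at 1.5 and -1.5. The 3 co-receptors lie to the right of the line and SMAD7 and BAMBI to the left, whereas INHBA is drawn at its fitted value although its NEC counts were at the floor.

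BMP ligands rose in NECs where they changed. Of 10 ligands, 5 rose, none fell, and 5 did not pass the test. BMP7, a close relative of BMP5 and BMP6 (chr20:55743804-55841685, minus strand, GRCh37), had 10.6 and 7.6 CPM in ESCs and 100.4 and 96.7 CPM in NECs. The NEC libraries thus lay close together and far above ESCs, with a log2 fold change of 3.45 (SE 0.16, with an adjusted p from edgeR of 2.8e-05). BMP5 (chr6:55618443-55740362, minus strand), went from 1 and 4 counts in the ESC libraries to 505 and 343 counts in NECs. That was the largest log2 fold change of any member, 7.29 (SE 0.49, with an adjusted p from edgeR of 9.38e-05), although its size rests on few ESC counts and was 8.31 without ESC replicate 2. GDF6 had 6 counts in each ESC library and 39 and 28 in NECs, a log2 fold change of 2.39 (SE 0.45, with an adjusted p from edgeR of 0.00404). BMP3, a ligand that opposes other BMPs, had 2 and 5 counts in ESCs but 11 and 59 in NECs (log2 fold change 3.17 with an SE of 0.88, edgeR adjusted p = 0.0199). Most of the BMP3 signal came from 1 NEC library, and without NEC replicate 2 the log2 fold change was 1.65 and the edgeR adjusted p 0.0926 (the highest over 10 alternative settings, of which the lowest gave 0.000184). BMP8B, at 1.8 and 1.54 CPM in ESCs and 2.85 and 3.04 CPM in NECs, passed the test with a log2 fold change of 0.82 (edgeR adjusted p = 0.0344), but not under DESeq2 or without any 1 of the 4 libraries (adjusted p between 0.0271 and 0.189 over all alternative settings). BMP8B is a near-identical paralogue of BMP8A, and reads of the pair could have been assigned to either gene.

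The remaining BMP ligands did not pass the test. GDF7, a roof plate ligand, had 17 counts in each ESC library, 120 in NEC replicate 1 and 26 in NEC replicate 2, so that the fitted log2 fold change of 2.06 carried an SE of 0.77 (edgeR adjusted p = 0.0562, between 0.000564 and 0.452 over all alternative settings). BMP4, the best studied inhibitor of neural fate, had 4.45 and 5.26 CPM in ESCs and 5.48 and 2.03 CPM in NECs. Its NEC replicates fell on either side of the ESC libraries. BMP2, the nearest relative of BMP4, had 18 and 14.2 CPM in ESCs and 29.4 and 17.6 CPM in NECs (log2 fold change 0.55, edgeR adjusted p = 0.106). BMP2 passed with no count filter, with the replicate block and without NEC replicate 2 (adjusted p between 0.00486 and 0.561 over all alternative settings). BMP6 stayed between 0.526 and 0.842 CPM in all libraries, and BMP8A had 10 and 9 counts in ESCs and 19 and 23 in NECs (edgeR adjusted p = 0.0522).

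TGF-beta and activin ligands moved in both directions, with 2 that rose and 2 that fell among 6. TGFB2 (chr1:218519577-218617961, plus strand) had 12 and 15 counts in ESCs and 188 and 134 in NECs, a log2 fold change of 3.51 (SE 0.36, with an adjusted p from edgeR of 0.000391). INHBB, the beta B subunit of activins and inhibins, had 2 and 4 counts in ESCs and 19 in each NEC library (log2 fold change 2.55 with an SE of 0.47, edgeR adjusted p = 0.0038). INHBA, the beta A subunit, had 15 and 25 counts in ESCs and 0 and 3 in NECs. With both NEC libraries at or under the floor of 3 counts, INHBA was at least 6.93-fold lower in NECs (edgeR adjusted p = 0.00544). TGFB1 had 18 and 20.9 CPM in ESCs and 13 and 15.3 CPM in NECs, and its small decrease (log2 fold change -0.46 with an SE of 0.15, edgeR adjusted p = 0.0374) did not pass under DESeq2 or library size scaling. Nor did it pass without NEC replicate 1 or without ESC replicate 2 (adjusted p between 0.0198 and 0.206 over all alternative settings). TGFB3, at 0.583 and 0.647 CPM in ESCs and 1.45 and 0.973 CPM in NECs, and INHBE, at 1.18 to 2.29 CPM in all libraries, did not pass the test.

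The type I BMP receptors changed in opposite directions. BMPR1A (chr10:88516396-88684945, plus strand) had 139 and 145 CPM in ESCs and 57 and 59.8 CPM in NECs, a log2 fold change of -1.28 (SE 0.09, with an adjusted p from edgeR of 9.14e-05). BMPR1B (chr4:95679119-96079599, plus strand) had 1.17 and 1.7 CPM in ESCs and 16.3 and 11.7 CPM in NECs, with a log2 fold change of 3.26 (SE 0.28, with an adjusted p from edgeR of 0.000218). Per length, BMPR1A was still the higher of the pair in NECs, at 5.8 CPM per kilobase of exon (RPKM) against 2.13 RPKM for BMPR1B, where ESCs had 14.1 and 0.218 RPKM. Among the other receptors, the type II BMP receptor BMPR2 fell from 34.9 and 41.7 CPM to 24.5 and 22.8 CPM (log2 fold change -0.70 with an SE of 0.12, edgeR adjusted p = 0.00339). ACVR1, a type I receptor for BMPs and activins, fell from 24.1 and 21.3 CPM to 16.5 and 15.7 CPM (log2 fold change -0.49 with an SE of 0.13, edgeR adjusted p = 0.0146), a call lost without ESC replicate 1 (adjusted p between 0.00697 and 0.0836 over all alternative settings). The type I TGF-beta receptor TGFBR1 rose from 81.2 and 75.5 CPM to 163 and 153 CPM (log2 fold change 1.01 with an SE of 0.09, edgeR adjusted p = 0.000237). The type II receptor TGFBR2 had 7.84 and 11 CPM in ESCs and 12.6 and 12.8 CPM in NECs and did not pass the test (edgeR adjusted p = 0.103). In sum over the 7 receptors the level was 288 and 296 CPM in ESCs and 290 and 276 CPM in NECs, so the summed level overlapped between cell types. Most of that sum was BMPR1A and TGFBR1, which moved in opposite directions. It is not per length and joins receptors of both branches.

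All 3 co-receptors were called higher in NECs. RGMA, a GPI-anchored BMP co-receptor that also guides axons (chr15:93586636-93632433, minus strand), had 59.5 and 56.7 CPM in ESCs and 252 and 262 CPM in NECs. Its log2 fold change of 2.14 (SE 0.09, with an adjusted p from edgeR of 1.76e-05) had the lowest adjusted p of any member. RGMB, its relative (chr5:98104354-98134347, plus strand), had 39.9 and 46.5 CPM in ESCs and 115 and 138 CPM in NECs (log2 fold change 1.55 with an SE of 0.13, edgeR adjusted p = 0.000184). With each library left out in turn, the log2 fold change of RGMB ranged from 1.41 to 1.68, across the threshold of 1.5. TGFBR3, or betaglycan, which presents TGF-beta2 and inhibin to the signalling receptors, had 7.05 and 6.39 CPM in ESCs and 31.0 and 27.8 CPM in NECs (log2 fold change 2.13 with an SE of 0.14, edgeR adjusted p = 8.2e-05). Together the co-receptors summed to 107 and 110 CPM in ESCs and 398 and 428 CPM in NECs.

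SMAD3 was the receptor-regulated SMAD with the largest change. SMAD3 (chr15:67356101-67487533, plus strand) had 34.9 and 29.97 CPM in ESCs and 137 and 133 CPM in NECs, a log2 fold change of 2.06 (SE 0.11, with an adjusted p from edgeR of 3.79e-05). Its partner SMAD2 had 56.5, 62.9, 55.1 and 58.4 CPM in the ESC and NEC libraries in turn, with overlapping cell types and a log2 fold change of -0.07 (SE 0.10, with an adjusted p from edgeR of 0.534). SMAD1 rose from 17.0 and 19.2 CPM to 28.7 and 25.9 CPM (log2 fold change 0.59 with an SE of 0.13, edgeR adjusted p = 0.00695). SMAD9 had 2.49 and 1.38 CPM in ESCs and 3.23 and 2.59 CPM in NECs and did not pass the test (edgeR adjusted p = 0.18). The common partner SMAD4 had 95.9 and 90.5 CPM in ESCs and 112 and 113 CPM in NECs, a log2 fold change of 0.27 (SE 0.08, with an adjusted p from edgeR of 0.0301) that did not pass under DESeq2 or without ESC replicate 1, ESC replicate 2 or NEC replicate 2 (adjusted p between 0.014 and 0.238 over all alternative settings). Per length, SMAD4 depended on the exon length used, with 5.73 RPKM in NECs over the union of its exons (19606 bases) and 12.6 RPKM over its longest transcript, whereas SMAD2 had 1.56 and 1.64 RPKM. Both lengths of SMAD2 were very long (36426 and 34626 bases), so this choice could hardly move its level. A shorter SMAD2 transcript was not tried, and its level per length beside the other SMADs rests on that annotated length.

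The feedback inhibitors SMAD7 and BAMBI fell, whereas SMAD6 did not pass the test. SMAD7, which blocks type I receptors of both branches (chr18:46446223-46477081, minus strand), had 42.1 and 36.2 CPM in ESCs and 6.46 and 5.51 CPM in NECs. The log2 fold change was -2.71 (SE 0.15, with an adjusted p from edgeR of 4.62e-05), and the cell types stood far apart. BAMBI, a receptor-like protein without a kinase domain (chr10:28966271-28971868, plus strand), had 28.4 and 26.5 CPM in ESCs and 4.59 and 3.12 CPM in NECs, a log2 fold change of -2.84 (SE 0.20, with an adjusted p from edgeR of 0.000111). SMAD6, the inhibitor biased towards BMP receptors, had 6.52 and 5.62 CPM in ESCs and 9.08 and 7.7 CPM in NECs. Both NEC libraries of SMAD6 exceeded the ESC libraries, but the log2 fold change of 0.47 (SE 0.20) had an edgeR adjusted p of 0.0788.

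Since these inhibitors are textbook direct targets of SMADs, the 250 bases before their RefSeq start sites (GRCh38.p14, a later build than that of the count table) were read for 3 letter strings bound by SMADs, on both strands: the palindrome GTCTAGAC, the GC-rich palindrome GGCGCC and the repeat unit CAGACA. The stretches of SMAD6 (chr15:66701986-66702235, plus strand), SMAD7 (the most upstream of 3 entries, chr18:48950966-48951215, minus strand) and BAMBI (chr10:28677271-28677520, plus strand) are shown from 5′ to 3′ because they are those of the inhibitors that differ in response, with matches in capitals.
SMAD6: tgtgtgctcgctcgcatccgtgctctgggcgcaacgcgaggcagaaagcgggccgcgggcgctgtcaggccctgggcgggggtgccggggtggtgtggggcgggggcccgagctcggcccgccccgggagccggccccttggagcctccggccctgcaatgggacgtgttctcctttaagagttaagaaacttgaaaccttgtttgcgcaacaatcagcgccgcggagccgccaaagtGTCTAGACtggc
SMAD7: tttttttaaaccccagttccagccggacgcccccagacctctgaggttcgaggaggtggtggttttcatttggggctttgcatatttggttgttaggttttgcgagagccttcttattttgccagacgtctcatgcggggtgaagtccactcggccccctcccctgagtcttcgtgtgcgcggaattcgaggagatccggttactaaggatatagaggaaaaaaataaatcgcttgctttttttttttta
BAMBI: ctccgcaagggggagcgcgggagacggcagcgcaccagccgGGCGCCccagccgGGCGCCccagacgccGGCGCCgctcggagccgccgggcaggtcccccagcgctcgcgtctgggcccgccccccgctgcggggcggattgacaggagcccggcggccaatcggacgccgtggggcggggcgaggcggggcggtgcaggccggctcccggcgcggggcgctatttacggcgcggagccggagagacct
SMAD6 held GTCTAGAC starting 12 bases before the start site, BAMBI held GGCGCC at 209, 196 and 181 bases before it, and none of the 3 SMAD7 entries held any of the strings. GTCTAGAC occurred in 0.182% of all 35116 RefSeq promoters of this length, GGCGCC in 16.4% and CAGACA in 13.6%. RefSeq entries were found for 37 of the 44 members, 75 in all, of which 1, 18 and 10 held the respective strings (1.33%, 24% and 13.3%). No string occurred in the 250 bases read before the starts of ID1, ID2, ID3 or ID4. Sequence further upstream was not read, so elements there would have been missed. A match is a description of the letters in this window, and it does not show binding.

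Of the 6 secreted antagonists and modulators, CHRD and BMPER rose. CHRD, or chordin (chr3:184097861-184108524, plus strand), had 1.17 and 4.05 CPM in ESCs and 19 and 17.9 CPM in NECs, a log2 fold change of 2.78 (SE 0.45, with an adjusted p from edgeR of 0.00234). The ESC libraries lay apart in the same direction as the summed mesendoderm markers, whose part in this was not tested, and the log2 fold change was 2.17 without ESC replicate 1 and 3.97 without ESC replicate 2. BMPER, a chordin-like modulator of BMPs, had 12 and 15 counts in ESCs and 57 and 115 in NECs (log2 fold change 2.56 with an SE of 0.39, edgeR adjusted p = 0.00188). FST, or follistatin, which binds activins, was the member with the highest level per length in ESCs (76.1 RPKM) and the second highest in NECs (85 RPKM). Its libraries overlapped, with 191 and 228 CPM in ESCs and 168 and 299.99 CPM in NECs, and it did not pass the test (log2 fold change 0.16 with an SE of 0.26, edgeR adjusted p = 0.611). NOG, or noggin, had 56 and 31 counts in ESCs and 110 and 44 in NECs (edgeR adjusted p = 0.322). GREM1, or gremlin, had 8.16 and 6.43 CPM in ESCs and 19.6 and 8.59 CPM in NECs, with an edgeR adjusted p of 0.0687 (between 0.00105 and 0.392 over all alternative settings, and under 0.05 with DESeq2, with no count filter, with the replicate block and without NEC replicate 2). NBL1 had 18.7 to 21.3 CPM in all libraries.

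The ID genes, which encode inhibitors of bHLH transcription factors and are standard readouts of BMP signalling, did not move together. ID4 (chr6:19837617-19840915, plus strand) had 2.01 and 1.5 CPM in ESCs and 30.3 and 25.7 CPM in NECs, a log2 fold change of 4.01 (SE 0.20, with an adjusted p from edgeR of 3.61e-05). ID3 (chr1:23884409-23886285, minus strand) rose from 47.7 and 64.3 CPM to 188 and 167 CPM (log2 fold change 1.66 with an SE of 0.15, edgeR adjusted p = 0.000272). Leaving out each library in turn gave ID3 log2 fold changes from 1.44 to 1.89, across the threshold of 1.5. ID2 rose from 37.4 and 31.0 CPM to 101 and 68.8 CPM (log2 fold change 1.31 with an SE of 0.20, edgeR adjusted p = 0.00167). ID1 had 49.9 and 52.6 CPM in ESCs, 29.4 CPM in NEC replicate 1 and 9.28 CPM in NEC replicate 2. ID1 thus fell (log2 fold change -1.41 with an SE of 0.45, edgeR adjusted p = 0.0329), but the NEC replicates differed 3.17-fold, and the call was lost under DESeq2 and without ESC replicate 2 (adjusted p between 2.36e-05 and 0.098 over all alternative settings). The log2 fold change of ID1 was -2.46 without NEC replicate 1 and -0.80 without NEC replicate 2. Per length, ID1 was the highest of the 4 in ESCs (41.5 RPKM, beside 37.4 RPKM for ID3, 15.5 RPKM for ID2 and 0.453 RPKM for ID4). In NECs ID3 was the highest member of all (119 RPKM), followed within the family by ID2 (38.4 RPKM), ID1 (15.7 RPKM) and ID4 (7.23 RPKM).

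**Figure D2:**
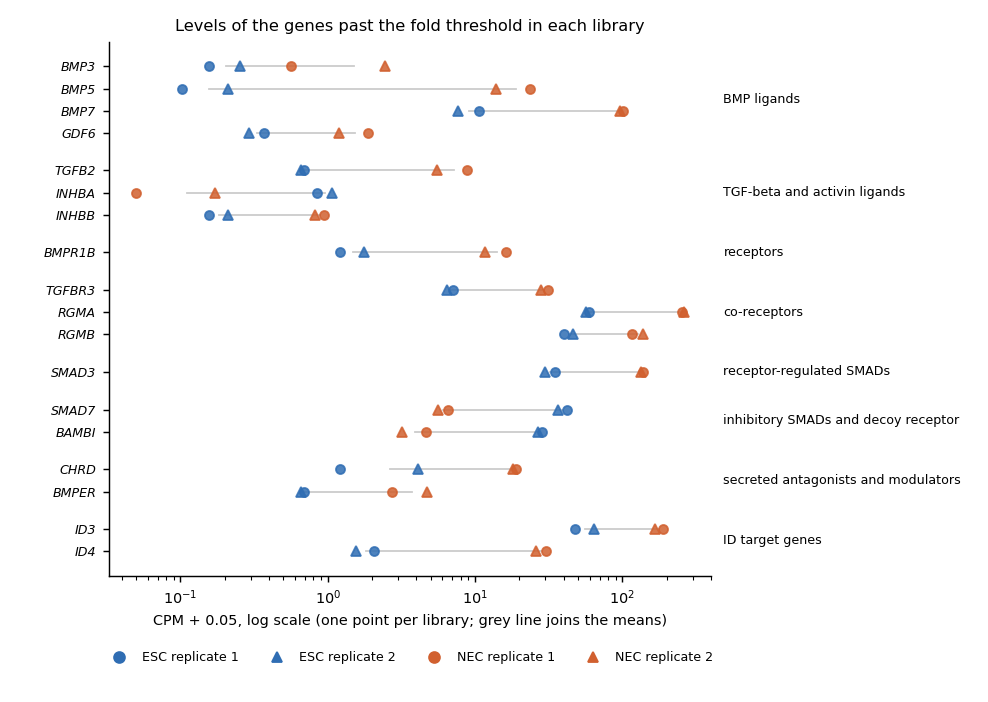
CPM plus 0.05 on a log axis for the 18 called members, with 1 point per library (circles for replicate 1, triangles for replicate 2, blue for ESCs, orange for NECs) and a line between the means. ESC and NEC points do not overlap in any row, and the widest gap between NEC replicates is that of BMP3 (0.515 and 2.39 CPM), apart from INHBA, which had 0 counts in 1 NEC library.

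Levels per length ranged widely. At 15 members the mean stayed under 1 RPKM in both cell types, whereas 6 members reached 10 RPKM in ESCs and 9 in NECs. A low level per length did not always go with few reads, since GREM1 had 154, 159, 419 and 212 counts over 14784 bases of exon and ACVRL1 no more than 5 counts over 5563 bases. Counting ignored strand, and 13 members overlap another gene of the table, among them CHRD with THPO, TGFB1 with HNRNPUL1, BMP8B with PPIE, BMP6 with TXNDC5 and NBL1 with MINOS1. Reads from overlapping stretches cannot be assigned to either gene with certainty.

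Outside the member list, 75 further genes of the pathway were read from the same fit. Of 62 tested, 26 rose and 23 fell, and 11 were called higher and 10 lower. Over all genes tested, 31.5% rose and 29.7% fell, and 11.4% were called higher and 9.68% lower. The median log2 fold change of the wider list was -0.07, beside 0.82 for the members. The 4 lowest fold changes were those of LEFTY1, LEFTY2, NODAL and GDF3. NODAL, the TGF-beta family ligand of the primitive streak, had 68.9 and 162 CPM in ESCs and 0.608 and 0.324 CPM in NECs (log2 fold change -7.96, edgeR adjusted p = 0.000131), and its ESC libraries differed in the same direction as the summed mesendoderm markers. Its feedback antagonists LEFTY1 (382 and 361 CPM to 0.14 and 0.405 CPM) and LEFTY2 (240.1 and 251 CPM to 0.374 and 0.446 CPM) had log2 fold changes of -10.34 and -9.20 (edgeR adjusted p = 5.87e-06 and 2.82e-06). GDF3, a relative of NODAL, had a log2 fold change of -7.10 (edgeR adjusted p = 0.000266). At the upper end, GDF10, a ligand related to BMP3, had 4 and 1 counts in ESCs and 406 and 378 in NECs (log2 fold change 7.15, edgeR adjusted p = 5.71e-05). The BMP target MSX1 had 3 and 4 counts in ESCs, 494 in NEC replicate 1 and 145 in NEC replicate 2 (log2 fold change 6.44, edgeR adjusted p = 0.00133). MSX2, also a BMP target, had 8 and 14 counts in ESCs but 391 and 39 in NECs (log2 fold change 4.28, edgeR adjusted p = 0.0187). Both genes, like the member BMP6, are also on the roof plate marker list, so these are not separate observations. ATOH8 rose with a log2 fold change of 4.59 (edgeR adjusted p = 7.73e-05). By group, 12 of 18 tested secreted modulators rose and 4 fell, whereas 8 of 16 intracellular regulators fell and 2 rose. Of the remaining groups, 4 of 10 ligands rose and 5 fell, 3 of 9 receptors rose and 4 fell, and 5 of 9 target genes rose and 2 fell.

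Replicates of either cell type differed somewhat more at members than over all genes. The median absolute log2 ratio between NEC replicates was 0.24 over members and 0.18 over all genes tested, and that between ESC replicates 0.24 and 0.14. In NECs 6 of 42 members with counts in both libraries exceeded 1, against 5.31% of all genes, and in ESCs 3 of 43 did, against 3.97%. GDF7, ID1, NOG, BMP4 and GREM1 were higher in NEC replicate 1 (by 5.33-fold, 3.17-fold, 2.89-fold, 2.7-fold and 2.28-fold), as were the summed neural crest and roof plate markers given above, and BMP3 was higher in NEC replicate 2, by 4.65-fold. Members and all genes were not matched for level, and some ratios rest on few counts, such as BMP5 with 1 and 4 counts in ESCs. The parts of low counts and of cell composition in these differences were not tested.

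PCHi-C lists the fragments that contact a baited promoter, here called promoter-interacting regions (PIRs), with a CHiCAGO score that weighs the contact against a background of distance. Pairs are listed from a score of 12 upwards, without read numbers, so the depth behind a contact is unknown. All 158504 fragments in the lists began at a HindIII site of GRCh37. To show what is joined in such a contact, the first 60 bases are given for the TGFB2 bait (chr1:218516400-218516459, plus strand), for its PIR with the highest score in NECs (chr1:219832647-219832706), and for the PIRs of ID3 (chr1:23960870-23960929) and FST (chr5:53510268-53510327) with the highest merged scores, all on the plus strand and with the HindIII site in capitals.
TGFB2 bait: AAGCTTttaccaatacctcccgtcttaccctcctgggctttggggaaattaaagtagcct
TGFB2 PIR: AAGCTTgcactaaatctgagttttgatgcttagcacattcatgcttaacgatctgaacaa
ID3 PIR: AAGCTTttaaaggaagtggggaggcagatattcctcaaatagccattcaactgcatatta
FST PIR: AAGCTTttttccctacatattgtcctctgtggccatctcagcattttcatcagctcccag

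Combining replicates, the authors' calls gave member promoters 281 PIRs in ESCs and 373 in NECs. The replicate lists held 281 and 237 in ESCs against 339 and 263 in NECs, with overlap between the cell types. Of the merged ESC interactions, 138 were also in the merged NEC list, 49.1% of the ESC list (95% Wilson interval 43.3% to 54.9%, counting error only) and 37% of the NEC list, against 44.2% and 44.3% over all baits. Contacts of member promoters reached far, with a median distance of 304 kb in ESCs and 338 kb in NECs beside 197 kb and 217 kb for all baits. Few of their PIRs were themselves promoter baits, 13.2% in ESCs and 8.58% in NECs, where all baits had 31.6% in both. The baits of 8 members, among them TGFB2, BMP7, BMPR1B and CHRD, also held the start of a neighbouring gene, and their contacts cannot be assigned to either start. None of the PIRs that were promoter baits held the start of another gene of the pathway, and starts outside baits were not looked up. Among the merged PIRs, 59.8% in ESCs and 52.8% in NECs lay in a protein-coding gene and 23.8% and 24.1% in no annotated gene.

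At 9 of 44 member promoters (20.5%) both NEC replicates had more PIRs than either ESC replicate, against 13.1% of all baits, and at 5 both ESC replicates had more, against 12.8% of all baits. Members and all baits were not matched for PIR number, and baits with few PIRs tie more easily. Among baits with any merged PIR, the median was 4.5 in ESCs and 5.5 in NECs for members, against 3 in both for all baits. With 2 replicates against 2, the smallest two-sided permutation p is 0.333, and no test was made. ID4 had 2 and 3 PIRs per ESC replicate and 13 and 9 per NEC replicate. BMP7 had 0 and 2 PIRs in ESCs against 7 and 5 in NECs, TGFB2 15 and 6 against 19 and 19, and SMAD7 2 and 1 against 6 and 5. Smaller differences were those of BMPR1B (6 and 6 against 8 and 10), GDF7 (2 and 5 against 6 and 8), INHBB (1 and 2 against 3 and 4), SMAD3 (1 and 1 against 3 and 2) and INHBA (5 and 6 against 7 and 7). BMP3 had the largest difference towards ESCs, with 24 and 21 PIRs against 14 and 9. BMPR1A had 17 and 14 against 13 and 10, BMP8A 6 and 7 against 3 and 2, GDF6 6 and 6 against 2 and 4, and SMAD9 3 and 5 against 1 and 1. In the merged lists the largest differences among these promoters were TGFB2 (11 PIRs in ESCs and 28 in NECs), BMP3 (29 and 13), BMP7 (3 and 15), ID4 (3 and 13), SMAD7 (3 and 12, none shared) and GDF7 (5 and 10). The merged lists did not bear out every replicate difference, since BMP8A had 2 merged PIRs in ESCs and 4 in NECs, against the direction of its replicates, and SMAD3 had 15 in each. FST had the most merged PIRs in NECs (31, with 26 in ESCs and 20 shared) and BMP3 the most in ESCs (29).

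**Figure D3:**
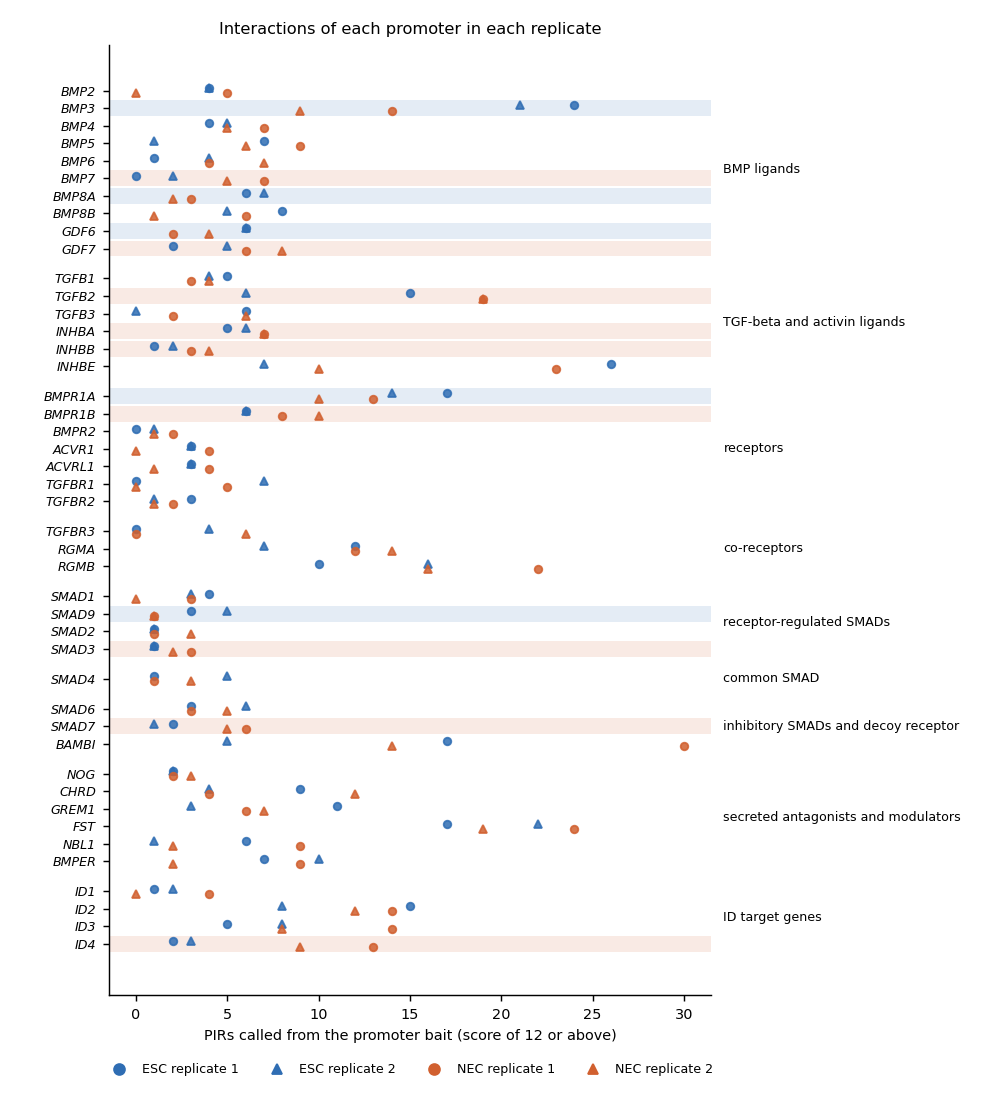
Number of PIRs called from each of the 44 member promoters in each replicate (circles for replicate 1, triangles for replicate 2, blue for ESCs, orange for NECs). Orange bands mark the 9 promoters whose NEC replicates both exceed the ESC replicates and blue bands the 5 promoters with the reverse.

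A total of 28 interactions of 12 member promoters were called in all 4 replicates, 3% of the 932 distinct member interactions against 2.5% of all interactions. FST had 6 of them, at 526 to 761 kb from its promoter and all within introns of ARL15. The strongest, at 739 kb, had merged scores of 20.1 in ESCs and 31.7 in NECs. ID3 had 5, all between 40.9 and 92.7 kb and 4 of them in MDS2, and one at 77.3 kb had the highest merged score of these contacts (19.1 in ESCs and 35.8 in NECs). ID3 kept 14 of its 15 merged ESC contacts in NECs. BMP3 had 4, at 660 to 674 kb in CFAP299, INHBE 3 in R3HDM2, and BMPR1A 3 at 101 to 207 kb, of which 2 lay within BMPR1A itself. The remaining promoters were those of ID2 (at 1246 kb), BMP8A (at the MACF1 start), CHRD (at the EPHB3 start, 183 kb away), BMPER, GDF7, BAMBI and TGFB2, with 1 each. Of the 28 contacts, 3 were promoter baits and held the start of another gene, and starts outside baits were not looked up.

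A further 28 interactions of 16 member promoters were called in both NEC replicates and in no ESC list, 3% of the member interactions against 1.83% of all. TGFB2 had 4 of them, 1222 to 1458 kb from its promoter. The contact at 1314 kb had scores of 19.4 and 23.4 in the NEC replicates and 25.9 in the merged NEC list, and it lay in no annotated gene, while those at 1453 and 1458 kb lay in an intron of SLC30A10. BMP7 had 3, at 65.5, 70.2 and 721 kb, the nearer 2 in SPO11. ID2 had 3 at 1252 to 1580 kb, and BAMBI had 3 at 216 to 725 kb. ID4 had contacts at 812 and 1243 kb, RGMB at 475 and 1330 kb, and FST at 449 and 751 kb. The other 9 promoters had 1 each, namely BMP4, BMP6, GDF7, TGFB3, INHBB, BMPR1B, RGMA, SMAD6 and SMAD7. The BMP4 contact (scores 12.2 and 12.4) was in neither merged list. Of these 28 contacts, 10 lay more than 1 Mb away and none was itself a promoter bait. Gene starts were looked up in baited fragments only, so starts in these contacts are unknown. Some lay beside contacts called in all 4 replicates. The FST contact at 751 kb and the ID2 contact at 1252 kb adjoined such fragments, at 745 and 1246 kb. The TGFB2 contact at 1222 kb lay next to the one at 1212 kb. As fragments were compared singly, these need not be contacts separate from the retained ones.

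In the other direction, 15 interactions of 13 promoters were called in both ESC replicates and in no NEC list, 1.61% of the member interactions against 1.83% of all. BMP3 and RGMB had 2 each, and BMP8B, INHBA, INHBE, BMPR1A, RGMA, SMAD4, SMAD6, BAMBI, BMPER, ID1 and ID2 had 1 each. The highest merged score among them was 20.1, for a BMPER contact at 717 kb in BBS9. RGMA, RGMB, SMAD6, BAMBI and ID2 each had contacts of both kinds. BMP8A and BMP8B both contacted the PABPC4 promoter fragment, with merged ESC scores of 15.9 for BMP8B and 16.0 for BMP8A.

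**Figure D4:**
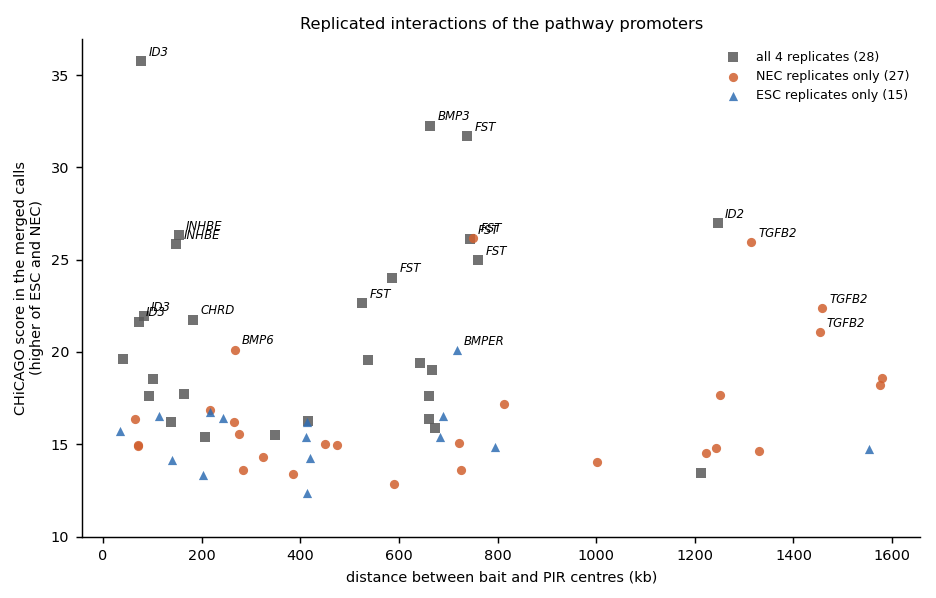
Distance in kb against the higher of the merged ESC and NEC CHiCAGO scores for the member contacts found in all 4 replicates (28, squares), in both NEC replicates and no ESC list (27 of 28, circles) and in both ESC replicates and no NEC list (15, triangles). Names mark scores above 20, and beyond 1 Mb those names are TGFB2 in NECs and ID2 in all replicates.

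The assays were set side by side without a test. Of the 9 promoters with more PIRs in both NEC replicates, 6 belonged to genes that rose (BMP7, TGFB2, INHBB, BMPR1B, SMAD3 and ID4), 2 to genes that fell (INHBA and SMAD7), and 1 to GDF7, which did not pass. For comparison, 12 of the 29 tested members whose PIR numbers overlapped rose and 5 fell, and 20 of all 43 tested members rose. Of the 5 promoters with more PIRs in both ESC replicates, BMP3 and GDF6 rose, BMPR1A fell, and BMP8A and SMAD9 did not pass. Contacts found in NEC replicates alone belonged to 8 genes that rose, 2 that fell and 6 that did not pass the test. Of the genes with contacts in ESC replicates alone, 7 rose, 4 fell and 2 did not pass, and of those with contacts in all 4 replicates 6 rose, 2 fell and 4 did not pass. BAMBI, which fell, had 3 contacts of the NEC kind and 1 of the ESC kind.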

How the data were processed

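RNA-seq and PCHi-C of H9 ESCs and day 7 NECs were used, with 2 samples per cell type that the labels call biological replicates. The RNA counts that the authors deposited are whole numbers per gene without normalization, made by trimming, alignment to GRCh37 with TopHat2 2.0.8b and Bowtie 1.0.0 (per the submitters' processing notes) and counting over Ensembl genes without regard to strand. For PCHi-C, deposited values are CHiCAGO scores of HindIII fragment pairs at 12 or above, which the authors computed for each replicate and for both replicates merged. Conventional Hi-C was not used here.

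Counts were filtered with filterByExpr (minimum count 10, which left 17564 of 31017 genes), TMM-scaled and fitted with the quasi-likelihood model of edgeR 4.0.16 in R 4.3.3, with a prior count of 0.125 and Benjamini-Hochberg adjustment over all genes tested. Standard errors were the log2 fold change divided by the root of the F statistic. CPM used TMM library sizes, RPKM the union of annotated exons (GRCh37), and the floor was 3 counts in each library of a cell type. The exon lengths came from a later annotation release than the one used for counting. Tested on simulated counts for the ESC and NEC libraries (17245 genes, 200 changed), edgeR recovered 191 with 0 false calls and DESeq2 1.42.0 recovered 186 with 0. The simulation gave every gene the same fixed dispersion and planted only changes beyond the fold threshold. Its recovery therefore does not give error rates for these data. Interactions were compared in Python 3.11.15 with pandas 2.3.3, as the same bait and PIR fragment. Members, lists and tests were chosen with earlier results of these data known. Library values are given in full for members past the fold threshold and for every SMAD and receptor. Of the wider pathway list, the 4 highest and 4 lowest fold changes among called genes at an average log2 CPM of at least 1 are named. Promoters are named for the largest differences in PIR number and for contacts found in both replicates of a cell type. Alternatives were scaling by library size alone or by the size factors of DESeq2, the test of DESeq2, other count filters, the replicate number as a block, each replicate left out, a score of 15, PIRs within 10 kb counted as shared, any bait with a transcript start and the length of the longest transcript. Promoter letters were read from RefSeq entries of GRCh38.p14, and no coordinate was converted between builds.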

Additional observations from a re-analysis of the deposited data

How the results depend on the processing

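Of 430 alternative fold changes of the 43 tested members, 392 kept the direction and the side of the threshold of the reported value, 17 fell short of it, 17 newly passed it and 4 changed sign. The genes that newly passed were BMP2, GDF7 and GREM1 under several settings, BMP8A with library size scaling alone, and BMP4, TGFB3, TGFBR2, NOG and FST without 1 library. All 4 sign changes were of genes that did not pass the test and came from leaving out 1 NEC library. Leaving out each library in turn, the log2 fold change ranged from -1.26 to 0.17 for BMP4, from -0.86 to 0.093 for INHBE, from -0.21 to 1.43 for NOG and from -0.32 to 0.52 for FST, with the change of sign without NEC replicate 1 for NOG and without NEC replicate 2 for the others. Of the 18 called members, 17 passed the adjusted p threshold under every alternative that could be fitted, the exception being BMP3, and of the 28 that passed the test 22 did. Leaving out each library in turn gave between 18 and 22 members that rose and between 6 and 8 that fell, and no alternative moved these counts, or those of called members or of the wider list, by more than 1.5 times.

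The replicate number gave no firm pairing. Deviations of same-numbered ESC and NEC libraries from their cell type means had a correlation of 0.074, and with 2 pairs the samples share only a number. With the replicate block, 23 members rose and 8 fell, 16 were called higher and 4 lower, and 26 of the wider list rose and 24 fell.

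Interaction counts depended on the threshold. At a score of at least 15, member promoters had 65 PIRs in the merged ESC list and 101 in the merged NEC list, with 40.0% of the ESC interactions shared. At that score 7 interactions were found in the NEC replicates alone, 2 in the ESC replicates alone and 5 in all 4 replicates, with 5 promoters having more PIRs in both NEC replicates and 2 in both ESC replicates. With PIRs within 10 kb counted as shared, these were 72.2% shared, 43, 24 and 135. Leaving out a replicate put single-replicate lists in place of merged ones, with 237 to 281 PIRs in ESCs and 263 to 339 in NECs. The shared percentage was then between 24.1 and 32.4, below the 49.1 of the merged lists. Interactions in NEC replicates alone numbered between 31 and 211 and in ESC replicates alone between 15 and 159. In all remaining replicates there were between 31 and 45. Promoters with more PIRs in NECs numbered between 15 and 21 and in ESCs between 6 and 12. For these counts, a definition that needs fewer replicates is easier to meet by its construction. Shares over all baits are not given for these settings. The median NEC level over members was 1.83 RPKM with the union of exons and 2.12 RPKM with the longest transcript. Without read numbers the depth behind an interaction is unknown, and at members with few counts, such as ACVRL1, reads limit what could be detected.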

Other observations

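Further genes of the wider pathway list were read after their values had been seen, and the edgeR fit was that of the report. The latent TGF-beta binding proteins, which store TGF-beta in the matrix, all rose in NECs. LTBP2 had 44 and 82 counts in ESCs and 313 and 383 in NECs (log2 fold change 2.40, edgeR adjusted p = 0.000253), and LTBP1, LTBP3 and LTBP4 had log2 fold changes of 0.89, 1.81 and 1.96 (edgeR adjusted p = 0.000418, 0.000141 and 0.000841). NEO1, or neogenin, a receptor for RGMA and RGMB, rose from 103 and 92.6 CPM to 229 and 218 CPM (log2 fold change 1.19, edgeR adjusted p = 0.000162).

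Other genes that take part in NODAL and activin signalling moved in both directions. ACVR1B, a type I receptor for activins and NODAL, rose from 43.1 and 37.9 CPM to 65.4 and 58.7 CPM (log2 fold change 0.62, edgeR adjusted p = 0.00338), and the ligand GDF1 rose with a log2 fold change of 1.28 (edgeR adjusted p = 0.000455). Overlaps with other genes were looked up for members only. The counts of GDF1 and of the other wider pathway genes may therefore include reads of an overlapping gene. The type II receptors ACVR2A and ACVR2B had log2 fold changes of -0.02 and 0.04 and did not pass the test (edgeR adjusted p = 0.914 and 0.808). The NODAL co-receptor TDGF1 had 545 and 644 CPM in ESCs but 1.83 CPM in NEC replicate 1 and 11.1 CPM in NEC replicate 2 (log2 fold change -6.49, edgeR adjusted p = 0.000377), and it also belongs to the pluripotency marker list. FOXH1, the DNA-binding partner of SMAD2 and SMAD3, had a log2 fold change of -2.92 (edgeR adjusted p = 6.69e-05), and the SMAD corepressor SKIL one of -2.80 (edgeR adjusted p = 2.51e-05). The secreted antagonist CER1 and the SMAD-binding membrane protein PMEPA1 had log2 fold changes of -5.62 and -5.10 (edgeR adjusted p = 0.000366 and 1.27e-05). ACVR1C, a type I NODAL receptor, had 15 and 17 counts in ESCs and 0 and 2 in NECs, which makes it at least 5.69-fold lower.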
